A study of Mus musculus with 4 samples.

Results

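The genes of the creatine and adenine nucleotide energy buffer were examined in H3K4me3 chromatin immunoprecipitation sequencing (ChIP-seq) of gastrocnemius, the large calf muscle of the mouse. H3K4me3, trimethylation of lysine 4 of histone H3, marks the nucleosomes just downstream of active or poised transcription start sites. The 9 genes were taken by symbol from GENCODE release M21, in which 21755 protein-coding genes lie on the X chromosome or an autosome: the creatine kinase genes Ckm, Ckb and Ckmt2, the creatine transporter gene Slc6a8, the creatine synthesis genes Gatm and Gamt, the adenylate kinase gene Ak1, and the AMP deaminase genes Ampd1 and Ampd3. All 9 symbols were found, each as 1 gene. For each gene, every peak within 1000 bp of any annotated start or over the gene body was taken.

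Muscle holds phosphocreatine as a store of high-energy phosphate, and creatine kinase moves that phosphate to ADP when ATP is spent. Adenylate kinase recovers further ATP by converting ADP to ATP and AMP, and AMP deaminase removes the AMP as IMP, the entry to the purine nucleotide cycle. Muscle fibres take up most of their creatine from the blood, while its synthesis is best known from kidney, pancreas and liver.

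The 4 libraries were of 1 group, gastrocnemius of female B6CASTF1/J mice aged 2 months, with no treatment named. The B6CASTF1/J mouse is the offspring of a C57BL/6J and a CAST/EiJ parent, and positions are those of mm10, a reference built from C57BL/6J alone. Pool E (biological replicate 1) and pool F (biological replicate 2) each combined 2 biosamples and were sequenced as 2 technical libraries. Values exist per pool and not per library or animal, the 2 pools measure the only spread available, and 2 values per gene allow no test. Peak lists existed for pool E, for pool F, for both pools combined (the pooled list) and, deposited as replicated peaks, again from both pools (the replicated list). A peak of the replicated list need not be in either pool's own list. The 41955 peaks (replicated), 42418 (pool E), 39544 (pool F) and 45270 (pooled) hold no read counts, so the sequencing depth behind each value is unknown. The tissue label held at its markers: all 7 skeletal muscle fibre genes looked at were marked, from Mylpf (signal value 58.8 in the replicated list) to Myh2 (9.83), and 0 of 3 cardiac, 0 of 3 hepatocyte and 0 of 3 kidney tubule genes were. Of marker genes of other cells, 4 of 4 endothelial, 3 of 3 fibro-adipogenic, 3 of 3 macrophage and 2 of 3 neuron genes were marked. With 69.3% of all protein-coding genes marked, such counts do not show that a cell type was present, and Snap25, a neuron gene, was unmarked. The part of other cells in the peaks described here was not tested, and in whole tissue a few strongly marked cells and many weakly marked ones cannot be told apart.

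All 9 genes had a peak within 1000 bp of a start in each of the 4 lists. Of all protein-coding genes, 69.3% were marked in this way in the replicated list, 69.3% in pool E, 68.9% in pool F and 69.5% in the pooled list. The 9 genes fell into groups by what lay around the start. Ckm, Ckmt2, Ak1 and Ampd1, the forms known from muscle fibres, had starts poor in CpG and marks that ran on, with gaps of at most 1000 bp, to between 5632 and 10768 bp past the start in the replicated list. Ckb, Slc6a8, Gatm, Gamt and Ampd3 had starts richer in CpG and marks that by the same measure reached 693 to 4216 bp, although Ampd3 had a separate weaker peak that ended 6361 bp past its first start. In the pools alone the muscle forms reached 4475 to 10778 bp (pool E) and 4722 to 9094 bp (pool F). The other genes reached 1694 to 3798 bp (pool E) and 663 to 3798 bp (pool F). The distance between the groups was thus small in each pool, with Ckmt2 the nearest of the muscle forms.

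The sequence before the starts is shown for genes of both groups, to set the letters beside the marks. RefSeq promoter sequence (GRCm38.p6, the build of mm10) was at hand for 7 of the 9 genes, all but Slc6a8 and Ampd1, and for Ampd3 the entry nearest to the marked start lay inside an exon. The first 3 lines are the muscle forms, read 5′ to 3′ on the coding strand up to the base before the first exon, with capitals on E-boxes (CANNTG, the site of basic helix-loop-helix factors such as MyoD). TATAAA, TCAGGTTTC (MEF3 site), TCAAGGTCA (estrogen-related receptor site), the MEF2 site and the CArG box were searched as well on both strands and are absent from these 3 windows.
Ckm, chr7:19410844-19411024, plus strand: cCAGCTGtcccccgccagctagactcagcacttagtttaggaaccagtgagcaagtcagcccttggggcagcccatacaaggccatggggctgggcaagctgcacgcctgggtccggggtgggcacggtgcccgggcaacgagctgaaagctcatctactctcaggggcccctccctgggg
Ckmt2, chr13:91876886-91877135, minus strand: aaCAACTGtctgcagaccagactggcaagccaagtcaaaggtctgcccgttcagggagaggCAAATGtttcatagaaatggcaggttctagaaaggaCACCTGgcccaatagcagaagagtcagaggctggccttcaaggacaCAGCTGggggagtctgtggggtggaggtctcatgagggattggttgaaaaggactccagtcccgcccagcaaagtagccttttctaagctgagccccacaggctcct
Ak1, chr2:32625187-32625436, plus strand: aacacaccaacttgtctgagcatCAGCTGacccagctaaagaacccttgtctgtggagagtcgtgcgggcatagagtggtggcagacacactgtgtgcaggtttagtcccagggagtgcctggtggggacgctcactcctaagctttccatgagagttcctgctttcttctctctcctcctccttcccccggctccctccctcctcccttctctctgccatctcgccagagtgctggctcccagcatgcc
The next 3 lines are genes outside that group, with capitals on every CG.
Ckb, chr12:111672339-111672588, minus strand: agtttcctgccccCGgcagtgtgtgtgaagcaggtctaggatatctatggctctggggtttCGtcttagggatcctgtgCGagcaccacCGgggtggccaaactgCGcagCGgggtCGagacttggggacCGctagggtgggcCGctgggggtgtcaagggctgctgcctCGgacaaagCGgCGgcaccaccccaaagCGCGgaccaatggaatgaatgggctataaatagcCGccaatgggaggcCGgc
Gamt, chr10:80261013-80261262, minus strand: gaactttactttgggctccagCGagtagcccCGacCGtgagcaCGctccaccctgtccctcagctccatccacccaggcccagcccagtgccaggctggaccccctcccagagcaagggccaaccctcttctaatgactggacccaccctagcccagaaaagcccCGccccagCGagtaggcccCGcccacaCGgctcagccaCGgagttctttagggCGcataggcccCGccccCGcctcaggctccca
Gatm, chr2:122611304-122611527, minus strand: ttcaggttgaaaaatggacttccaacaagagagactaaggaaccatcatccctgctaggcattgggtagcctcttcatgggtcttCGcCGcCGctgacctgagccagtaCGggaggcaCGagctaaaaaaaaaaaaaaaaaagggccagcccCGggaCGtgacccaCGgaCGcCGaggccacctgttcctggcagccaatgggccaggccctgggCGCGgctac

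Ckmt2 held 4 E-boxes in 250 bases, Ak1 held 1, and Ckm held 1 in 181. Of the genes outside that group, Gatm also held 1 in 224 bases, not in capitals above, and Ckb and Gamt held 0. At least 1 E-box was found in 66.2% of 32851 promoter windows of 250 bases and in 55.7% of windows of 181 bases, so a single match is common. The form CAGCTG, a subset of CANNTG, occurred once in each of the 3 muscle forms printed and not in Ckb, Gamt or Gatm. It was found in 13% of windows of 250 bases and 9.27% of windows of 181 bases. Ckb had 16 CG in 250 bases and Gamt 12, against a median of 6 over all windows of that length. Gatm had 12 CG in 224 bases, against a median of 5. Ckmt2 had 2 and Ak1 had 5 in 250 bases, and Ckm had 6 in 181, where the median was 4. Ckb also carried TATAAA 28 bases before its start, inside a match to the MEF2 site, which 12.4% and 2.92% of the windows held. Gamt carried 3 GC boxes (GGGCGG), found in 32.7% of windows, and Ckmt2 1. A match describes letters and not a bound factor.

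Over 1000 bp around the marked start, the ratio of observed to expected CpG was 0.155 at Ckm, 0.186 at Ak1, 0.198 at Ckmt2 and 0.26 at Ampd1. It was 0.532 at Ampd3, 0.535 at Gamt, 0.575 at Gatm, 0.677 at Ckb and 0.747 at Slc6a8, where the median of all 15067 marked genes was 0.719. The first 4 genes were in the low CpG class (ratio under 0.48 at every start), of which 25.2% of genes were marked in the replicated list. Gatm, Gamt and Ampd3 were intermediate, with 93.9% of such genes marked, and Ckb and Slc6a8 were in the high class, with 99.3% marked (the class needs, at any start of the gene, 55% GC or more together with a ratio of 0.75 or more). A mark at Ckb, Slc6a8, Gatm, Gamt or Ampd3 was thus what most genes of their class had.

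**Figure D1:**
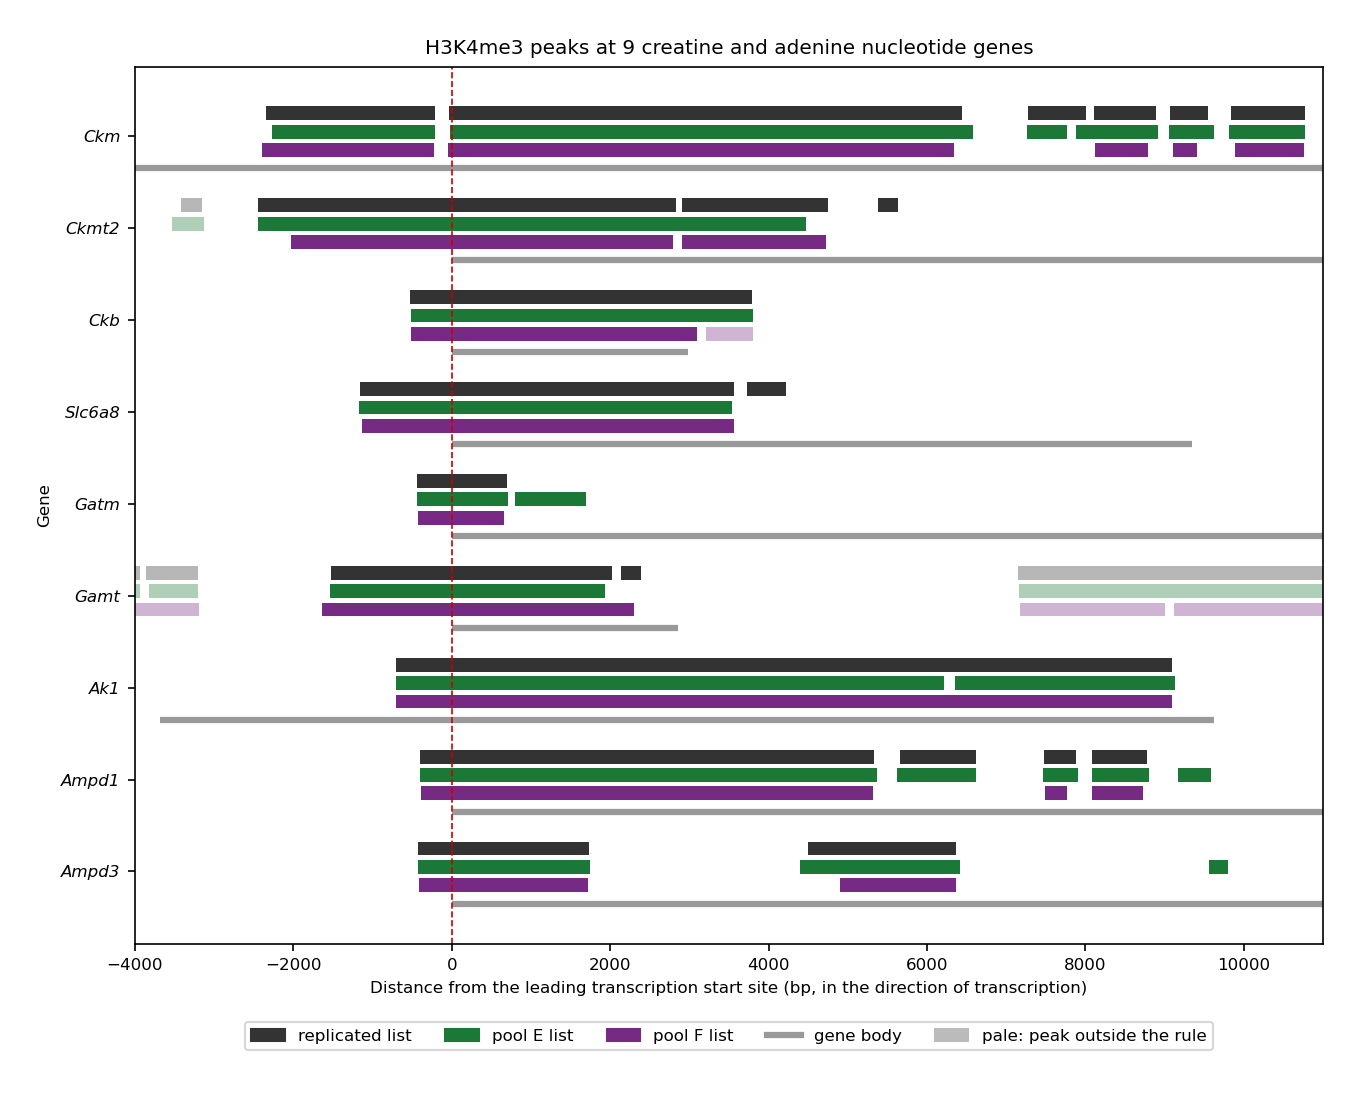
Peaks of the replicated, pool E and pool F lists around the leading start of each of the 9 genes, with the x axis in bp from the start in the direction of transcription. The dashed line is the start, the grey line the gene body (clipped at the plot's edges), and pale bars are peaks that the rule did not take. Ckm, Ckmt2, Ak1 and Ampd1 are marked over several kb downstream in all 3 lists, and Gatm over 693 bp in the replicated list.

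Peaks closer than 1000 bp to each other were read as 1 domain, and its width was taken as the measure of spread along the gene. In the replicated list the median domain of the 9 genes was 5378 bp and that of all marked genes 2400 bp, while the median signal values (the authors' own strength of a peak, read here only within a list) were 47.1 and 45.2. Domains over 5000 bp were found at 5 of the 9 genes, against 12.4% of all marked genes. They were those of Ckm, Ak1, Ampd1, Ckmt2 and, by a weak second peak, Slc6a8. In each pool alone 4 of 9 passed 5000 bp, without Slc6a8, where 13.3% (pool E) and 10.7% (pool F) of all marked genes did. Among marked genes of the low CpG class 13.2% had such a domain, and all 4 members of that class did. The shares were 13.8% in the high class, with 1 of 2 members (Slc6a8), and 10.5% in the intermediate class, with 0 of 3. Peaks covered 50% of the gene body or more at 4 of the 9 genes in every list, Ckm, Ckb, Gamt and Ak1, against 8.96% of marked genes in the replicated list, 9.29% in pool E, 8.42% in pool F and 9.05% in the pooled list. A peak in the gene body over 1000 bp from any start was found at 3 of the 9 genes in the replicated list and in each pool and at 4 in the pooled list, and Ckm and Ampd1 had one in all 4. The shares of all genes were 27.7% in the replicated list, 27.8% in pool E, 26.5% in pool F and 29.1% in the pooled list.

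Ckm encodes the cytosolic creatine kinase of muscle, part of which is bound to the M-band of the sarcomere. The gene lies on the plus strand of chromosome 7 from 19404776 to 19422841. Its leading peak ran from 19410991 to 19417465 in the replicated list, 6475 bp from 34 bp before the start at 19411025 across exons 1 to 5 of 8, with its summit at +267. The signal value of this peak was 58.9 in pool E, 47.7 in pool F and 53.1 in both the replicated and the pooled list. It ranked above 74.3, 62.6 and 69.3% of marked genes in pool E, pool F and the replicated list, so Ckm was well above the middle in strength but not among the strongest promoters.

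Ckm ranked higher in width than in strength. The domain measured 13044 bp in pool E, 8736 bp in pool F (mean 10890 ± 3046, SD, n = 2 pools) and 13119 bp in the replicated list, wider than 99.2% of marked genes there. Such width was not particular to Ckm or to muscle: in the replicated list the 7 muscle fibre marker genes had domains of 5206 (Myh2) to 24733 bp (Tnnt3), the 3 fibro-adipogenic ones of 10125 (Dcn) to 15097 bp (Col1a1) and the 4 endothelial ones of 3660 (Tie1) to 12370 bp (Cdh5). Behind the leading peak lay 4 smaller peaks in the replicated list, the last over exon 8 with a signal value of 14.0. The share of the gene body under peaks was 66.2% (68.0% in pool E, 59.99% in pool F). This gene body begins at the start of a non-coding transcript at 19404776, so the share also counts peaks upstream of the start at 19411025. The difference in domain width between the pools came from 1 weak peak between exons 5 and 6, at 19418294 to 19419028 with a signal value of 3.46 in the replicated list and 4.72 in pool E: it had no partner in pool F, and it bridged the leading peak to the 3 behind it. Without that bridge, in the pooled list, the domain was 8791 bp. The leading peak itself was 6612 bp long in pool E and 6385 in pool F.

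Before the start, a second strong Ckm peak ran from 2350 to 216 bp upstream, with a signal value of 31.6 in the replicated list, 35.9 in pool E and 28.4 in pool F. Its summit lay at −594. Between it and the leading peak, a stretch of 181 bp without a peak spanned positions −215 to −35, and the stretch was 187 bp long in pool E and 183 in pool F. Of the Ckm promoter printed above, 147 bases lay in this unmarked stretch in the replicated list. A muscle enhancer of Ckm has long been described upstream of the promoter, in the region under the upstream peak. The 250 bases of the upstream peak that hold the most matches to E-box, MEF2 site, CArG box and MEF3 site, a window picked for those matches, lay at −1206 to −957 and are shown with the matches in capitals.
Ckm upstream peak, chr7:19409819-19410068, plus strand: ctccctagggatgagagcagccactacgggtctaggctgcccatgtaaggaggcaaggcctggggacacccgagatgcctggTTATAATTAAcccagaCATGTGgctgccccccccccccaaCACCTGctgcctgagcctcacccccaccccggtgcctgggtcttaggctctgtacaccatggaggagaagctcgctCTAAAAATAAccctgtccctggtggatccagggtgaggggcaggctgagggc
The window holds 2 E-boxes and 2 MEF2 sites. Of 41953 windows of 250 bases centred on the summits of replicated peaks, 67.2% held an E-box and 2.1% a MEF2 site. Those windows were not picked for matches, and the Ckm window does not hold the summit of its peak. The shares are therefore not the rate for a window picked in this way, which was not computed.

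Farther upstream, a peak with a signal value of 38.2 lay 232 bp from the start of a non-coding Ckm transcript at 19404776 and over a start of Klc3, a kinesin light chain gene on the opposite strand, so that it cannot be assigned to Ckm. A weak peak (5.74 in the replicated list, 7.07 in pool E, 4.83 in pool F) lay in an intron 882 bp from that non-coding start. The start of the antisense gene A930016O22Rik also lies in the Ckm domain, and ChIP-seq does not separate the strands.

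Ckmt2 encodes the sarcomeric mitochondrial creatine kinase, which charges creatine with phosphate from ATP made in the mitochondria. It lies on the minus strand of chromosome 13 from 91853387 to 91876885 and has 1 annotated transcript. Its mark was weak and broad. The signal value was 16.4 in pool E, 12.6 in pool F and 13.5 in the replicated list, above only 10.7, 9.52 and 9.88% of marked genes. Its domain measured 8015 bp (pool E) and 6759 bp (pool F; mean 7387 ± 888, SD, n = 2 pools), wider than 95.9 and 95.3% of marked genes. In strength Ckmt2 ranked lowest of the 9 genes in pool E, pool F and the replicated list, and in width it ranked above Ckb, Slc6a8, Gatm, Gamt and Ampd3 in all 3.

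The Ckmt2 mark was also displaced from its start. Its leading peak ran from −2448 to +2827 in the replicated list, across exon 1 and part of the first intron of 10 exons, and its summit lay at +715 (+803 in pool E, +712 in pool F). The median summit of all marked genes was at +201, with an interquartile range of 120 to 352 bp. A separate peak of 1840 bp in the first intron (signal value 9.54) lay mostly under the leading peak of pool E and apart from it in pool F, where it was 1812 bp wide. A further peak of 258 bp in that intron was in neither pool's own list. Upstream, the domain reached 3415 bp before the start in the replicated list, 3539 in pool E and 2036 in pool F.

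Ckb encodes the brain-type cytosolic creatine kinase, which is found in many tissues. It is a short gene on the minus strand of chromosome 12 from 111669361 to 111672338, and in the replicated list 1 peak of 4328 bp covered all 8 exons and 100% of its 2978 bp. The domain was 4308 bp (pool E) and 4318 bp (pool F; mean 4313 ± 7.07, SD, n = 2 pools). Ckb thus showed the smallest difference between pools of the 9 genes, although the leading peak alone was 3616 bp in pool F, where the rest of the domain lay past the end of the gene. Its signal value was 52.8 in pool E, 47.2 in pool F and 44.0 in both the replicated and the pooled list. The value of the pooled list lay below both pools, as in 10.2% of the 14930 genes marked in both pools.

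Of the creatine kinases, the 2 muscle forms had wider domains than Ckb in every list. The narrowest Ckm domain of the 4 lists was 8736 bp and the narrowest Ckmt2 domain 6759 bp, and the widest Ckb domain was 4328 bp. In signal value the muscle forms did not rank together: in pool E it was 58.9 for Ckm, 52.8 for Ckb and 16.4 for Ckmt2, and in pool F 47.7 for Ckm, 47.2 for Ckb and 12.6 for Ckmt2, so that Ckm and Ckb lay close to each other in pool F. Ckmt1, the other mitochondrial creatine kinase gene, whose product is known from brain and epithelia, had no peak within 1000 bp of a start in any list.

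**Figure D2:**
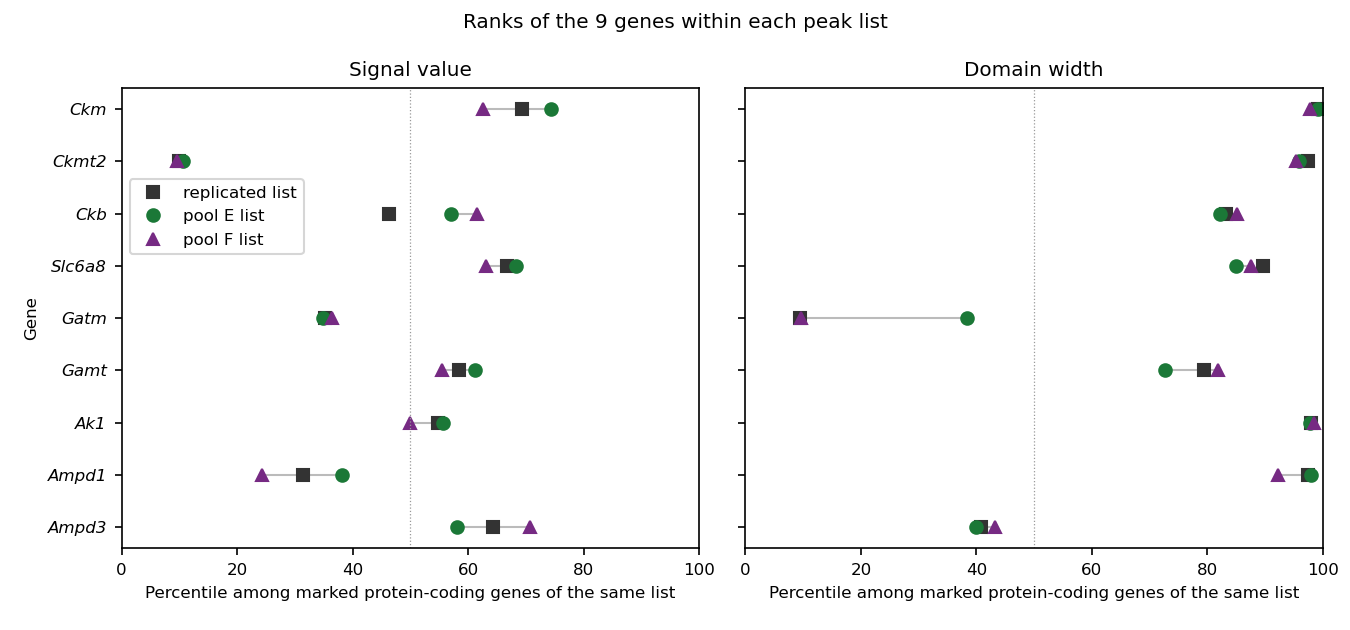
Percentile of the signal value (left) and of the domain width (right) of each gene among the marked protein-coding genes of the same list. Squares stand for the replicated list, circles for pool E and triangles for pool F. Ckm, Ckmt2, Ak1 and Ampd1 lie above the 92nd width percentile in all 3 lists, while in signal value Ckmt2 lies near the 10th percentile and Ckm between 62.6 and 74.3.

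Slc6a8 encodes the sodium- and chloride-dependent creatine transporter, by which muscle takes creatine from blood. It lies on the plus strand of the X chromosome from 73673150 to 73682502. The leading peak ran from 1161 bp before to 3557 bp after the start in the replicated list, 4719 bp over exons 1 to 3 of 13. It was 4716 bp wide in pool E and 4692 in pool F, and its summit lay at +163, +162 and +164 in the replicated list, pool E and pool F. The signal value was 57.0 in pool E, 47.8 in pool F and 52.2 in the replicated list, above 68.3, 63.1 and 66.7% of marked genes. Of 12 annotated starts, 7 lay inside a peak in each pool. A second peak of 484 bp with a signal value of 3.08 was in the replicated and pooled lists and in neither pool's own list, and it brought the domain to 5378 bp.

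Gatm and Gamt encode the enzymes of creatine synthesis: the Gatm product joins arginine and glycine to guanidinoacetate, and the Gamt product methylates that to creatine. Gatm lies on the minus strand of chromosome 2 from 122594467 to 122611303. Its peak was 1130 bp wide in the replicated list, 1145 in pool E and 1097 in pool F, from 436 bp before to 693 bp after the start, over exon 1 of 9. It was narrower than the peaks of the other 8 genes in each list, and 11.1% of marked genes had a narrower leading peak in the replicated list. Its signal value was 41.3 in pool E, 36.6 in pool F and 38.3 in the replicated list, above 34.8, 36.4 and 35.3% of marked genes. In pool E a further peak of 895 bp and signal value 3.82 lay just downstream, which brought the domain to 2132 bp (1.94 times that of pool F). Pool F had no such peak. Both other annotated Gatm starts lay 10797 bp or more from any peak.

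Gamt lies on the minus strand of chromosome 10 from 80258151 to 80261012. Its leading peak of 3541 bp covered exons 1 to 5 of 6 and 4 of 4 annotated starts, with a signal value of 54.5 in pool E, 44.4 in pool F and 48.9 in the replicated list. The domain was 3464 bp (pool E) and 3946 bp (pool F; mean 3705 ± 341, SD, n = 2 pools). This peak also covered the start of Dazap1, an RNA-binding protein gene that runs the other way from 474 bp away, and the mark cannot be divided between the genes. Of the 9 leading peaks, that of Gamt alone covered a start of another protein-coding gene.

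Between uptake and synthesis, the domains were widest at Slc6a8 and narrowest at Gatm in each pool. The Slc6a8 domain was 4716 bp (pool E) and 4692 bp (pool F), that of Gamt 3464 and 3946 bp, and that of Gatm 2132 and 1097 bp. This order depends on how peaks are joined: across gaps of up to 2500 bp the Gamt domain of the replicated list was 12705 bp and that of Slc6a8 5378 bp. In signal value the order in each pool was again Slc6a8, Gamt, Gatm. Slc16a12, which encodes a creatine transporter of the monocarboxylate family, had a domain of 2612 bp (pool E), 1422 bp (pool F) and 1434 bp (replicated list), so it was wider than Gatm in each of these lists and the pools differed by more than for Gamt. In the pooled list Slc16a12 was the narrower, 1434 bp against 2097 bp at Gatm. The signal value of Slc16a12 was 41.7 in pool E, 35.9 in pool F and 38.2 in the replicated list.

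Ak1 encodes the cytosolic adenylate kinase that is abundant in muscle. It lies on the plus strand of chromosome 2 from 32621758 to 32635058. A single peak of 9796 bp, from 701 bp before the start at 32625437 to 9094 bp after it, covered all 7 exons in the replicated list. Its length was the same, 9796 bp, in pool F, while in pool E it was split into pieces of 6921 and 2770 bp, a domain of 9828 bp. This leading peak was wider than 99.4% of those of marked genes in the replicated list. It covered 73.6% of the gene body in the replicated list, with 72.9% in pool E and 73.6% in pool F.

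The strength of the Ak1 peak was near the middle: 51.9 in pool E, 42.9 in pool F and 47.1 in the replicated list, above 55.6, 49.95 and 54.7% of marked genes. Of 6 annotated starts 5 lay inside the peak. Protein-coding starts farther into the gene, at 32628390 and 32629504, were among them, and the mark cannot be divided between the starts. The first start, of a protein-coding transcript at 32621758, lay 2978 bp from the nearest peak in the replicated list, 2977 in pool E and 2978 in pool F, and was thus unmarked in both pools.

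Ampd1 encodes the AMP deaminase of skeletal muscle. It lies on the plus strand of chromosome 3 from 103074014 to 103099720. Its leading peak reached from 397 bp before to 5333 bp after the start, 5731 bp over exons 1 to 3 of 16, and was 5782 bp long in pool E and 5697 in pool F. The signal value was 43.2 in pool E, 29.6 in pool F and 35.8 in the replicated list, above 38.1, 24.3 and 31.4% of marked genes. In pool E 4 weaker peaks followed in the introns and in pool F 2. The domain was therefore 9992 bp (pool E) and 5697 bp (pool F; mean 7845 ± 3037, SD, n = 2 pools, ratio 1.75), a difference larger than that of 99.2% of genes marked in both pools. As at Ckm, the pools differed by a weak bridging peak, here of 1000 bp with a signal value of 5.57 in pool E, which pool F lacked. Ampd1 starts farther into the gene, at 103093779 and 103094450, lay 7846 and 7175 bp from the nearest peak in the replicated list.

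Ampd3 encodes an AMP deaminase first described in red blood cells and found in many tissues. It lies on the plus strand of chromosome 7 from 110768206 to 110812405. The leading peak was 2152 bp in the replicated list, 2174 in pool E and 2131 in pool F, with signal values of 51.4, 53.2 and 50.4 in the same order. It ranked above 64.2% of marked genes in the replicated list, 58.1% in pool E and 70.6% in pool F. Ampd3 was the only one of the 9 genes with 2 separate peaks that each covered protein-coding starts: a second, weaker peak of 1861 bp lay from 4501 to 6361 bp downstream of the first start, with a signal value of 8.56 (11.3 in pool E, 9.88 in pool F). In the replicated list it covered starts at 110772788, 110773672 and 110774244 and lay 103 bp from the one at 110772604. A further peak of 242 bp, 72 bp from the start at 110777690, was in pool E and not in pool F.

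Ampd1 and Ampd3 thus showed opposite orders for strength and width. In pool E the signal value was 43.2 at Ampd1 and 53.2 at Ampd3 and in pool F 29.6 and 50.4, so Ampd3 was the stronger in both. Ampd1 had the wider domain in both, 9992 against 2174 bp in pool E and 5697 against 2131 bp in pool F. Ampd2, the form known from liver and other tissues, had a domain of 2865 bp (pool E) and 3033 bp (pool F). Its signal value was 61.1 in pool E and 51.3 in pool F. Ampd2 was thus both stronger and wider than Ampd3 in each pool.

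**Figure D3:**
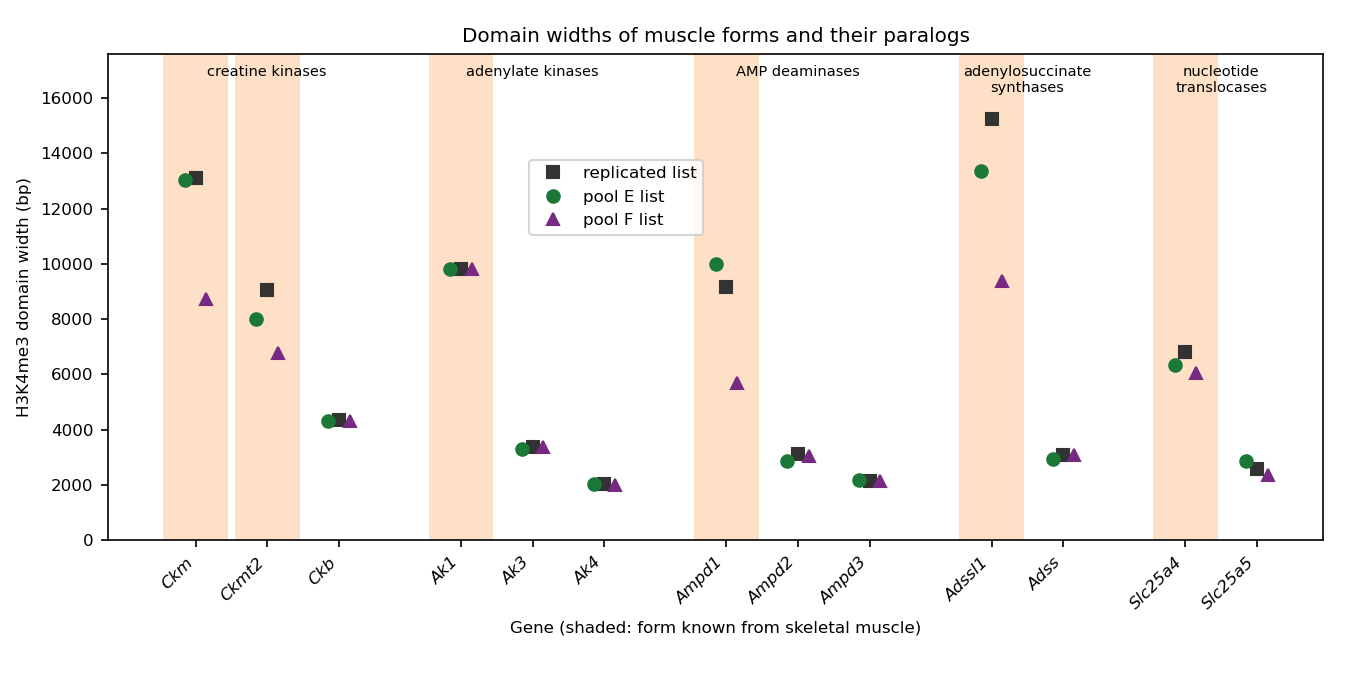
Domain width in bp of the muscle form (shaded) and of named paralogs, for the replicated list (squares), pool E (circles) and pool F (triangles). Each shaded gene lies above each of its unshaded paralogs shown, in all 3 lists, with 15252 bp at Adssl1 against 3077 bp at Adss in the replicated list.

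The adenylosuccinate synthase and ADP/ATP carrier pairs gave the same order, and the AMP and IMP nucleotidases did not. Adssl1, the muscle form of adenylosuccinate synthase in the purine nucleotide cycle, had a domain of 13381 bp (pool E) and 9368 bp (pool F), and Adss, the other form, 2937 and 3074 bp. Slc25a4, the main ADP/ATP carrier of muscle and heart mitochondria, had 6352 and 6060 bp, and Slc25a5, a carrier of many tissues, 2851 and 2347 bp. Of the adenylate kinases beside Ak1, the mitochondrial forms Ak3 and Ak4 had 3298 and 2027 bp in pool E against 3351 and 1993 bp in pool F. Slc25a4 and Adssl1 differed from the muscle forms among the 9 genes in CpG, with ratios of 0.717 and 0.617. Nt5c1a, a cytosolic AMP nucleotidase gene known from skeletal muscle, had a narrower domain than Nt5c2, a cytosolic IMP nucleotidase gene of many tissues: 2070 against 3527 bp in pool E, 2035 against 2744 bp in pool F and 2058 against 3566 bp in the replicated list.

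Over the wider pathway of 35 genes, which includes the 9, 33 were marked in each of the 4 lists (69.3% of all protein-coding genes in the replicated list). The unmarked genes were Ckmt1 and Slc25a31, the ADP/ATP carrier of testis. Of the 24 other marked genes, only Adssl1 and Slc25a4 had domains over 5000 bp in the replicated list, where 12.4% of all marked genes did. Signal values of these 24 ran from 7.08 at Ak7, an adenylate kinase gene of ciliated cells, to 62.5 at Ak3.

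Set against genes of their own CpG class in the replicated list, the 9 genes kept the same split in width. Among the 2107 marked genes of the low class, the domain of Ckm was wider than 98.9%, that of Ak1 than 97.0%, that of Ampd1 than 96.1% and that of Ckmt2 than 96.0%. In signal value Ckm exceeded 95.8% of that class, Ak1 90.2%, Ampd1 76.8% and Ckmt2 40.2%, and each of the 4 ranked higher in strength within its class than among all marked genes. Ckb and Slc6a8 had wider domains than 80.5 and 88.6% of the 6798 marked genes of the high class. Among the 6162 of the intermediate class, Gamt exceeded 83.3%, Ampd3 51.7% and Gatm 10.4%.

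**Figure D4:**
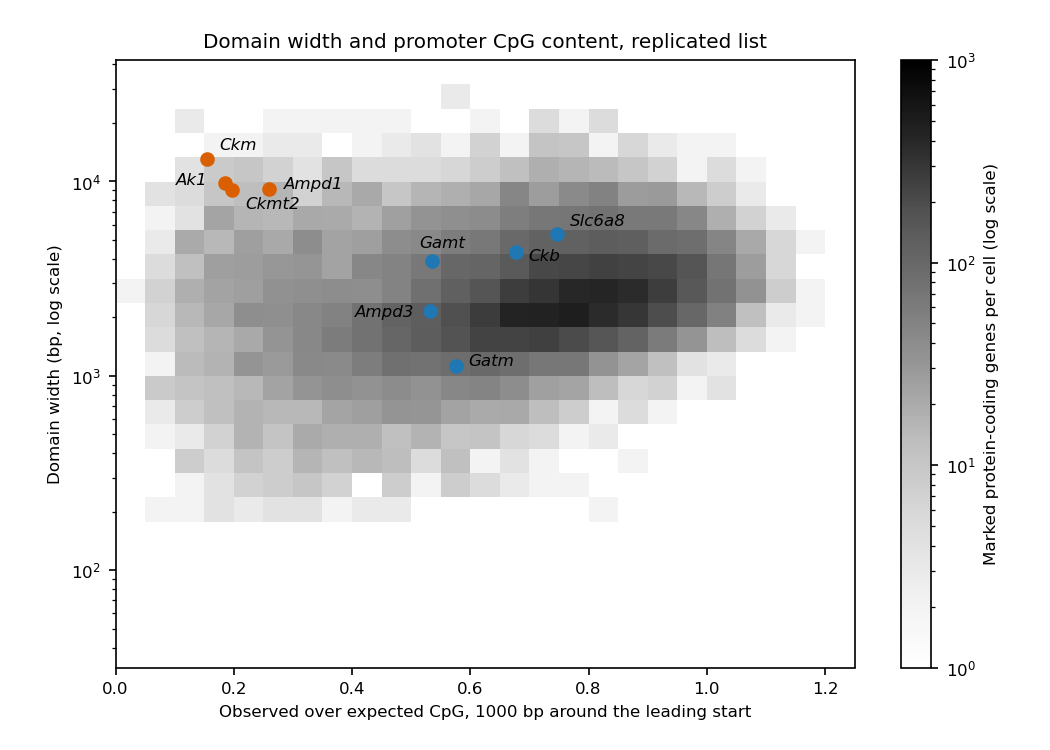
Domain width (log scale) against the ratio of observed to expected CpG in 1000 bp around the leading start, replicated list. Grey cells count the 15067 marked protein-coding genes, orange points are Ckm, Ckmt2, Ak1 and Ampd1, and blue points the other 5 genes. The orange points lie at ratios of 0.155 to 0.26 and widths of 9048 to 13119 bp.

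Between the pools, the leading peaks of all 9 genes overlapped, and 99.1% of all genes marked in pool E were marked in pool F, as 99.6% of those of pool F were in pool E. Of the 24 peaks taken at the 9 genes in pool E, 19 (79.2%) were overlapped in pool F, where 82.5% of all pool E peaks were. All 19 peaks of pool F were overlapped in pool E, where 93.8% of all pool F peaks were. Of the 24 peaks taken at the 9 genes in the replicated list, 21 were overlapped in pool E and 20 in pool F. The share over all replicated peaks was not computed. The 5 peaks of pool E without a partner had signal values of at most 5.57 and lay at Ckm, Gatm, Ampd3 and, in 2 cases, Ampd1. Over all 14930 genes marked in both pools, the domain was wider in pool E for 76.8% and the median ratio of E to F was 1.05 (interquartile range 1.0038 to 1.12). Ckm (1.49), Ampd1 (1.75), Gatm (1.94) and Ckmt2 (1.19) lay above that range. Gamt (0.878), Ckb (0.998) and, by a small margin, Ak1 (1.0033) lay below it, and Slc6a8 and Ampd3 lay within it.

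The protein-coding gene outside the pathway whose signal and width percentiles in the 2 pools were nearest to those of each gene was sought among 14897 genes, by the distance over 4 percentiles. It was Itpkb for Ckm (distance 2.14 percentile points), Tuba8 for Ak1 (1.8), Fgf7 for Ckmt2 (1.32) and Sqstm1 for Ampd1 (3.16). For the others it was Trps1 for Ckb (1.02), U2af2 for Slc6a8 (3.38), Diaph1 for Gamt (4.3), Supt4a for Ampd3 (3.33) and Hhipl1 for Gatm (7.94). With 2 pools of 1 tissue, this likeness describes shape and strength of the mark alone.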

How the data were processed

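H3K4me3 ChIP-seq peaks of 4 libraries in 2 pools were used as deposited, in 4 narrowPeak lists on mm10, with library fragments of 200 to 600 bp per the labels. Per the deposited text files, the lists came from the alignments of 1 pool or of both. Which aligner and peak caller made them is not given in the sources used here. Signal values were taken as deposited by the authors, and their reference level is not stated. The deposited score was not used in a result, summits came from the deposited offsets, and the deposited −log10 q-value served only to filter peaks. The lists hold no counts, so depth is unknown.

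Computed here, with Python 3.11.15, pandas 2.3.3 and pysam 0.24.0: starts from GENCODE M21, a window of 1000 bp, domains across gaps of up to 1000 bp, the leading peak (highest signal value within the window), the leading start (the most 5′ basic protein-coding start under that peak, or else the nearest), CpG ratios over 1000 bp, and motifs. Percentiles count marked genes of the same list with a lower value. Code for marking was tested on simulated peaks. No test was made, since there is 1 condition.

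Named were the 9 genes, paralogs of the muscle forms (1 is not reported here), unmarked pathway genes, genes sharing a peak, and nearest genes. The members and lists were chosen with earlier results of these data known. Alternatives were windows of 0 and 2500 bp, basic transcripts, each list, q-value limits of 0.05 and 0.0001, gaps of 0, 500 and 2500 bp, an overlap of 50% and another gene body.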

Additional observations from a re-analysis of the deposited data

How the results depend on the processing

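All 9 genes stayed marked under each of the 8 alternatives for window, transcript set, list and q-value, and their leading peaks still overlapped between the pools when 50% of each peak was required. The pathway count was 33 of 35 except at a window of 2500 bp, where it was 34. The share of all genes marked went from 67.0 to 70.4%. Domain width moved by more than the SD of the pools in 21 of 63 recomputed values. These values include the widths of pool E and pool F, from which the SD was taken. At Ckb, with an SD of 7.07 bp, a change from 4328 to 4308 bp counted as moved. The count therefore does not measure the size of the changes. Joined across gaps of up to 0 bp, the domains of Ckm, Ckmt2 and Ampd1 were 6475, 5276 and 5731 bp, and that of Ak1 stayed at 9796 bp. Each was still wider than 4328 bp, the widest value of Ckb. At a gap of 2500 bp the Gamt domain grew to 12705 bp, as neighbouring peaks joined it, which turns its order against Slc6a8 (5378 bp). At that gap Gamt was also wider than Ak1 (9796 bp), Ampd1 (9170 bp) and Ckmt2 (9048 bp), though not Ckm (13119 bp). The split in width between the muscle forms and the other genes thus did not hold for Gamt there. Over the longest protein-coding transcript 79.4% of Ckm was covered. No paired analysis was possible because the lists hold 1 value per pool and the technical replicate numbers of the libraries pair nothing. Leaving out a library was not run, since no list holds 1 library.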
